A study of Mus musculus with 21 samples.

Results

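The effect of human mutant tau on forebrain gene expression was compared between mice carrying human APOE4 and mice carrying human APOE2. Of the 21 mice sequenced, the 14 mice of the groups E2H (3), PE2H (4), E4H (3) and PE4H (4) enter this comparison. All 4 groups are homozygous for a human APOE allele in place of mouse Apoe, APOE2 in E2H and PE2H and APOE4 in E4H and PE4H, and the parental lines E2H and E4H were kept on a C57BL6 background. PE2H and PE4H mice are in addition heterozygous for the PS19 transgene, which expresses human tau with the P301S mutation and was kept on a B6/C3H background before it was crossed to the APOE lines, so the tau mice are of mixed background. E2H and E4H mice were killed at 9 to 10 months of age, whereas PE2H and PE4H mice were killed when their hindlimbs were paralyzed, so the tau transgene, genetic background, paralysis and age at death cannot be told apart within an APOE line. The RNA came from frozen, pulverized forebrain and was sequenced as stranded poly(A) libraries. The measure of interest is the interaction, which is the log2 tau effect on the APOE4 background (PE4H minus E4H) minus the log2 tau effect on the APOE2 background (PE2H minus E2H). A positive value means that the tau effect was larger, or less negative, on APOE4.

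Apolipoprotein E is made in the brain mainly by astrocytes and by activated microglia, and it carries cholesterol and other lipids between cells. Microglia are the resident phagocytes of the brain, and near degenerating neurons they raise lysosomal proteases, complement C1q, Fc receptors and antigen presentation genes while many of their resting genes fall. Astrocytes react to injury with intermediate filaments such as GFAP, and interferons drive a separate antiviral program in glia and neurons. Forebrain tissue was measured in bulk, so fewer cells of a type and less RNA per cell cannot be told apart in any value given here.

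Total counts per mouse lay between 59265459 and 75533642, and mitochondrial genes took 7.25% to 10.9% of them. On the second principal component of the 14 libraries, which held 16.2% of the variance, E2H replicate 2 stood farthest out at 38.6, followed by PE2H replicate 2 at 28.1, and E2H replicate 2 also had the highest mitochondrial share and the lowest normalization factor, 0.938. Cortical excitatory neuron markers were high in every mouse, with a mean of 6.33 to 6.80 on the log2 CPM scale over the list, while the cerebellum and hindbrain list lay between -0.58 and 2. Xist, which marks female mice, was above 100 CPM in 10 mice, and the other 4 (E4H replicate 3, PE2H replicate 2, and PE4H replicates 1 and 4) had Ddx3y from the Y chromosome at 42.4 to 64.9 CPM. The study's methods state males, except for a minority of females in E4H and PE2H and equal numbers of each sex in PE4H. The mice with Ddx3y lay in those same groups. The data thus go against the stated sexes in E2H, E4H and PE2H and match the stated numbers in PE4H. The cause was not tested. The replaced mouse Apoe gene was counted at 11.6 to 16.4 CPM in all 14 mice, with overlapping groups, and reads of the human APOE and tau transgenes were not analysed here. CPM is the TMM-normalized count scaled to a common library size (edgeR's cpm).

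No gene passed the interaction test. Among 22031 genes tested with edgeR's quasi-likelihood test, the smallest Benjamini-Hochberg adjusted p was 0.182, so 0% of genes were called at 0.05. At an unadjusted p under 0.05 there were 2223 genes, 10.1% of those tested, of which 1177 (5.34%) had a larger tau effect on APOE4 and 1046 (4.75%) a smaller one. The median interaction over all genes was 0.013, and 51.6% of values were positive. DESeq2, fitted to the same counts, called 112 genes at an adjusted p under 0.05, 62 larger and 50 smaller on APOE4. Every one of those 112 had the same sign in edgeR and 108 had an unadjusted edgeR p under 0.05. With the same counts and the same contrast in both tests, this is not independent support. The 112 included 19 predicted or unnamed genes, 13 genes for which all mice of some group were at 0 counts, and 9 with an absolute log2 value over 10. An interaction value below is therefore a value that did not pass the edgeR test, with the DESeq2 result beside it where DESeq2 called it. Counts of list members below are to be read beside the shares of all genes given here and, for the tau effect, in the next paragraph.

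The tau effect itself passed the test for 573 genes on APOE4, 478 higher (2.17% of genes tested) and 95 lower (0.431%) in PE4H than in E4H mice, at an edgeR adjusted p under 0.05 and a fold of at least 2. On APOE2 it passed for 188 genes, 180 higher (0.817%) and 8 lower (0.0363%) in PE2H than in E2H mice. These counts depended on the parental mice: without E4H replicate 2 the APOE4 count was 318, and the APOE2 count was 82 without E2H replicate 3 and 96 without E2H replicate 1. There were 142 genes that rose in both arms, which is 78.9% of the APOE2 list and 29.7% of the APOE4 list. Their median log2 tau effect was 1.82 on APOE4 and 1.5 on APOE2, and 104 of the 142 had a positive interaction. A further 336 genes rose on APOE4 and did not pass the test on APOE2. Of these, 319 had a log2 tau effect above 0 on APOE2 as well. A positive interaction at an unadjusted p under 0.05 was found for 133 of the 336, against 5.34% of all genes. Passing on APOE4 and not on APOE2 already picks genes with positive interactions, so this count is a description only. Across all 22031 genes the Pearson correlation of the arms, which share no mice, was 0.31, and across the 618 genes called in either arm it was 0.58. Genes are not independent replicates, so these correlations are descriptions.

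**Figure D1:**
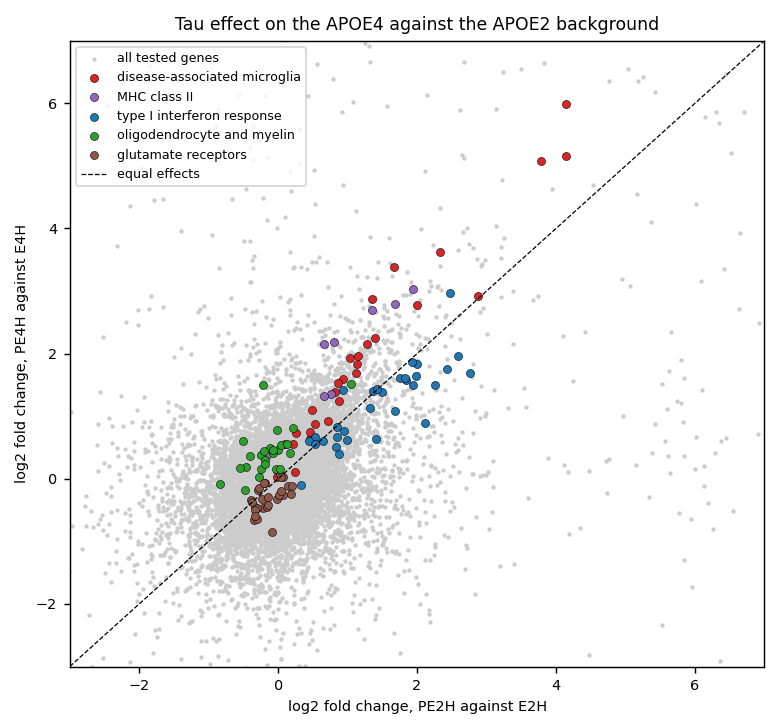
Log2 tau effect on the APOE2 background (x axis) against log2 tau effect on the APOE4 background (y axis) for the tested genes. Points above the diagonal have a larger effect on APOE4, and most of the genes that rose in both arms (104 of 142) lie there. The axes leave out 139 genes with larger values.

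4 stretches of promoter sequence are shown for 2 MHC class II genes, the interferon response gene Isg15 and Ctss, all described in the next paragraphs. They are the 110 bases directly upstream of the annotated RefSeq start, read 5′ to 3′ on the gene's strand from the mouse build GRCm38.p6, with motif matches in capitals. The Y box (TGATTGG), bound by NF-Y, belongs to the control region of MHC class II genes, and the interferon element (GAAA, any 2 bases and GAAA again) is bound by STAT and IRF factors. The H2-Aa window is chr17:34287824-34287933 on the minus strand, the H2-Eb1 window is chr17:34305757-34305866 on the plus strand, the Isg15 window is chr4:156200819-156200928 on the minus strand and the Ctss window is chr3:95526676-95526785 on the plus strand.
H2-Aa: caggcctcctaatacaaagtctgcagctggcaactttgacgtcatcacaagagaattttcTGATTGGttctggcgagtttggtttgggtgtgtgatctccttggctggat
H2-Eb1: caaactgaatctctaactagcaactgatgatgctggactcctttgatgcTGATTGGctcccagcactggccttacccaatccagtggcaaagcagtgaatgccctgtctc
Isg15: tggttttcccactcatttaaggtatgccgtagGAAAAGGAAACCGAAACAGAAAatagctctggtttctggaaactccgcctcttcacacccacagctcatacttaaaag
Ctss: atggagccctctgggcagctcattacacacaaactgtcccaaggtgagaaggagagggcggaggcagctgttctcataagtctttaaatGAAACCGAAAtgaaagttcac
The Y box began 50 bases upstream of the start in H2-Aa and 61 bases upstream in H2-Eb1. Isg15 held 3 matches of the interferon element, beginning 78, 72 and 66 bases upstream and overlapping each other, and Ctss held 1 match beginning 21 bases upstream. Searched on both strands of the 250 bases upstream of the start, the Y box occurred in 5 of the 6 MHC class II genes that have a window (H2-Aa, H2-DMb1, H2-Eb1, H2-Oa and H2-Ob) and in 1 of 21 type I interferon genes, against 7.23% of all 32851 windows. The interferon element occurred in 11 of the 21 interferon genes and in 0 of the 6 MHC class II genes, against 2.98% of all windows. Of 15 complement genes with a window, 0 held the Y box and 1 the interferon element. Of 25 disease-associated microglia genes with a window, 3 held the Y box and 3 the interferon element. The median interaction of both lists was positive, as was the interaction of Ctss, so motif and sign did not go together over these lists. A match describes the letters only and is neither a binding site nor a cause.

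The C1q genes, C3ar1 and C4b rose on both backgrounds, each with a positive interaction. C1qa, a chain of the recognition protein C1q of the classical complement pathway, had the smallest p of all genes. Its level was 51.2, 65.5 and 47.0 CPM in E2H, 144, 157, 149 and 141 in PE2H, 36.7, 39.0 and 37.0 in E4H, and 227, 183, 183 and 181 in PE4H mice. The 4 groups did not overlap: E4H was the lowest group and PE4H the highest. C1qa rose 5.15-fold on APOE4 (log2 2.37, SE 0.11, edgeR adjusted p = 3.23e-08) and 2.71-fold on APOE2 (log2 1.44, SE 0.11, edgeR adjusted p = 1.18e-05). The interaction was 0.93 (SE 0.15, unadjusted p = 1.56e-05, edgeR adjusted p = 0.182, DESeq2 adjusted p = 5.3e-05), a ratio of folds of 1.90. The other C1q chains had interactions of 0.75 for C1qb (SE 0.18) and 0.77 for C1qc (SE 0.20), with DESeq2 adjusted p of 0.0312 and 0.0479 and edgeR adjusted p of 0.293 each. For both chains every E4H mouse lay below every E2H mouse, and the PE4H and PE2H mice overlapped.

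C3ar1, the receptor for the complement fragment C3a, was at 3.29, 2.97 and 2.55 CPM in E2H, 9.12, 7.65, 9.86 and 7.12 in PE2H, 2.61, 2.47 and 2.71 in E4H, and 17.2, 11.9, 13.1 and 14.1 in PE4H mice. All PE4H mice lay above all PE2H mice, and the parental groups overlapped. Its interaction was 0.92 (SE 0.22, edgeR adjusted p = 0.291, DESeq2 adjusted p = 0.0368). C4b, which is cleaved to deposit C4 on targets, rose in both arms (log2 2.74, SE 0.21, on APOE4 and 2.02, SE 0.20, on APOE2), with an interaction of 0.72 (SE 0.27, edgeR adjusted p = 0.405). The alternative pathway factor Cfb went the other way: it was at 0.79, 1.88 and 1.64 CPM in E2H, 3.22, 3.15, 3.20 and 3.36 in PE2H, 2.05, 2.49 and 2.33 in E4H, and 1.91, 2.20, 1.84 and 3.22 in PE4H mice. It rose 2.25-fold on APOE2 (edgeR adjusted p = 0.0362) and had a log2 tau effect of 0.00 (SE 0.26) on APOE4, with an interaction of -1.17 (SE 0.37, edgeR adjusted p = 0.357). Among 21 tested complement genes of 23 listed, 10 rose on APOE4 and 9 on APOE2, against 2.17% and 0.817% of all genes, 13 interactions were positive, which is near the 51.6% of all genes, and the median was 0.29 (0.17 without E2H replicate 2 and 0.45 without E2H replicate 1). C6 and Vsig4 were too low to be tested.

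**Figure D2:**
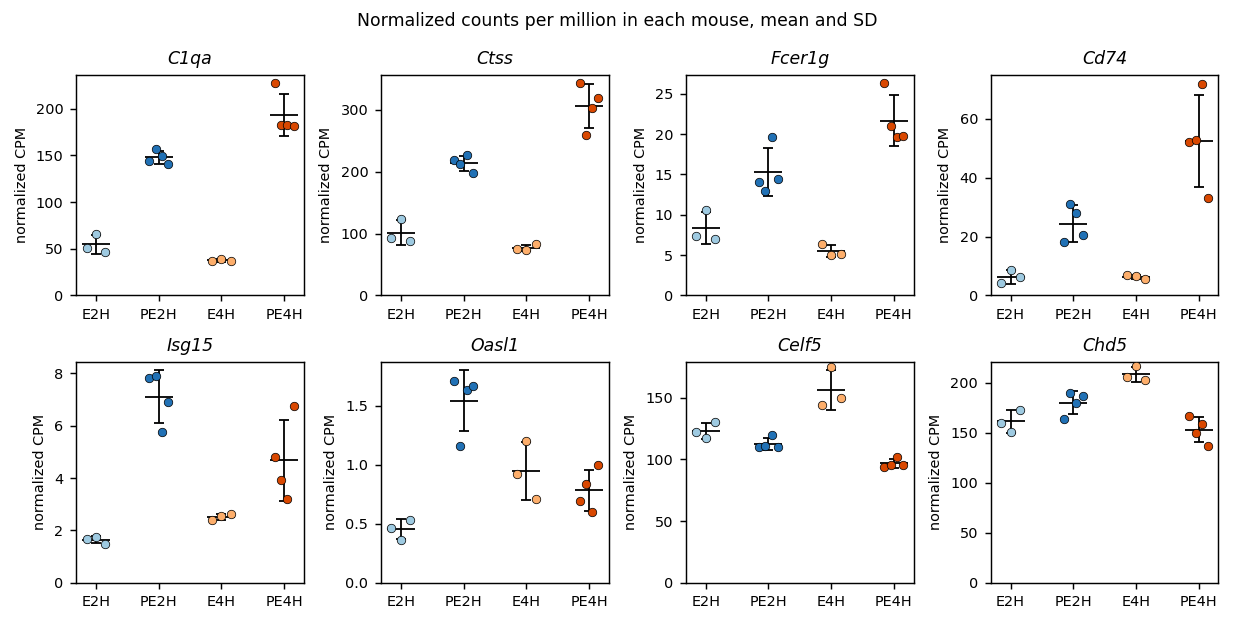
Expression in CPM (y axis, TMM-normalized, linear from 0) of 8 genes in each mouse of the 4 groups (x axis); points are mice, and the lines are the group mean and SD. C1qa and Ctss show 4 separate groups with PE4H highest and E4H lowest, and Oasl1 and Celf5 show PE4H mice below the PE2H mice.

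Cathepsins and other lysosomal genes followed the same order. Ctss, a cysteine protease that trims the invariant chain of MHC class II, was at 92.8, 124 and 87.2 CPM in E2H, 218, 212, 226 and 197 in PE2H, 74.3, 72.7 and 82.4 in E4H, and 343, 259, 302 and 318 in PE4H mice. Again no groups overlapped. Ctss rose 3.99-fold on APOE4 (log2 2, SE 0.12, edgeR adjusted p = 3.49e-07) and 2.11-fold on APOE2 (log2 1.07, SE 0.12, edgeR adjusted p = 0.000225), with an interaction of 0.92 (SE 0.16, unadjusted p = 4.15e-05, edgeR adjusted p = 0.182, DESeq2 adjusted p = 0.000294). The lysosomal cholesterol carrier Npc2 had an interaction of 0.53 (SE 0.12, DESeq2 adjusted p = 0.0308), with 118 to 138 CPM in PE4H and 93.8 to 120 CPM in PE2H mice, which overlapped. Ctsh, an aminopeptidase, had an interaction of 0.81 (SE 0.21, DESeq2 adjusted p = 0.0467). Of the most abundant members, Ctsb, a cysteine protease, had a positive interaction of 0.28 (SE 0.11, unadjusted p = 0.0181) and Psap, the saposin precursor, one of -0.12 (SE 0.09). Of the 30 genes on the list, 10 rose on APOE4 and 4 on APOE2, 26 interactions were positive against 51.6% of all genes, 16 had an unadjusted p under 0.05 in the positive direction against 5.34% of all genes and 0 in the negative direction against 4.75%, and the median was 0.33.

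Disease-associated microglia genes, the set that microglia raise around lesions, were counted higher on both backgrounds. Of the 30 genes, 19 rose on APOE4 and 12 on APOE2, against 2.17% and 0.817% of all genes. The median log2 tau effect was 1.56 on APOE4 and 0.91 on APOE2. Positive interactions numbered 29, against 51.6% of all genes, and the median was 0.59. In edgeR 19 interactions had an unadjusted p under 0.05, all positive, against 5.34% of all genes. DESeq2 called 1, Cd52. Cd52, a surface glycopeptide of leukocytes, was at 1.75, 3.39 and 2.18 CPM in E2H, 5.47, 7.30, 8.60 and 3.39 in PE2H, 1.42, 1.10 and 1.07 in E4H, and 11, 8.87, 7.40 and 7.82 in PE4H mice. E4H lay below E2H, while PE4H and PE2H overlapped, and its interaction was 1.52 (SE 0.41, edgeR adjusted p = 0.309, DESeq2 adjusted p = 0.0453). Tyrobp, the adaptor through which TREM2 signals, had an interaction of 0.91 (SE 0.27) and Trem2 itself one of 0.81 (SE 0.26), both at an edgeR adjusted p of 0.352 and 0.357 in that order. Trem2 was at 33.8, 37.6, 36.4 and 23.8 CPM in PE2H and 55.0, 44.4, 39.2 and 49.4 CPM in PE4H mice, which did not overlap, and it rose in both arms.

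The genes with the largest tau effects had less certain interactions. Clec7a, the beta-glucan receptor dectin-1, was at 0.896, 0.873 and 0.832 CPM in E2H, 14.9, 12.1, 28.8 and 5.43 in PE2H, 1.01, 0.753 and 0.375 in E4H, and 34.0, 25.2, 22 and 20.1 in PE4H mice. It rose in both arms (log2 5.16, SE 0.50, and 4.14, SE 0.48), PE4H and PE2H overlapped, and the interaction was 1.01 (SE 0.62, edgeR adjusted p = 0.604). Itgax, the integrin CD11c, rose in both arms and had an interaction of 1.29 (SE 0.50, edgeR adjusted p = 0.407), with PE4H replicate 1 at 38.8 CPM and the other PE4H mice at 19.5 to 21. Lyz2, the lysozyme of myeloid cells, had an interaction of 1.71 (SE 0.55, edgeR adjusted p = 0.357) and spread widely among tau mice, from 34.6 to 124 CPM in PE2H and from 87.0 to 221 CPM in PE4H. Gpnmb, a lysosomal glycoprotein, rose in both arms with an interaction of 0.04 (SE 0.89), and Fth1, the ferritin heavy chain and most abundant member, had an interaction of 0.46 (SE 0.17) without passing the fold limit in either arm.

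Homeostatic microglia genes, which mark microglia at rest, had a median interaction of 0.48 over 17 genes, and 15 of the values were positive. Their summed level was 637 to 811 CPM in E2H, 935 to 1320 in PE2H, 608 to 624 in E4H and 1340 to 1680 in PE4H mice, so it moved in the same direction as the microglial genes above, and its part in their interactions was not tested. The list, and so its summed level, contains the 3 C1q genes, with C1qa alone at 181 to 227 CPM in PE4H mice. The sum is therefore not independent of the complement genes above. Csf1r, the receptor that keeps microglia alive, had an interaction of 0.11 (SE 0.16) with overlapping groups. P2ry12, the purinergic receptor lost on activation, had a log2 tau effect of 0.07 on APOE4 and -0.27 on APOE2, with an interaction of 0.33 (SE 0.29), and Tmem119 had one of 0.48 (SE 0.21). Of this list 7 genes rose on APOE4 and 3 on APOE2.

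**Figure D3:**
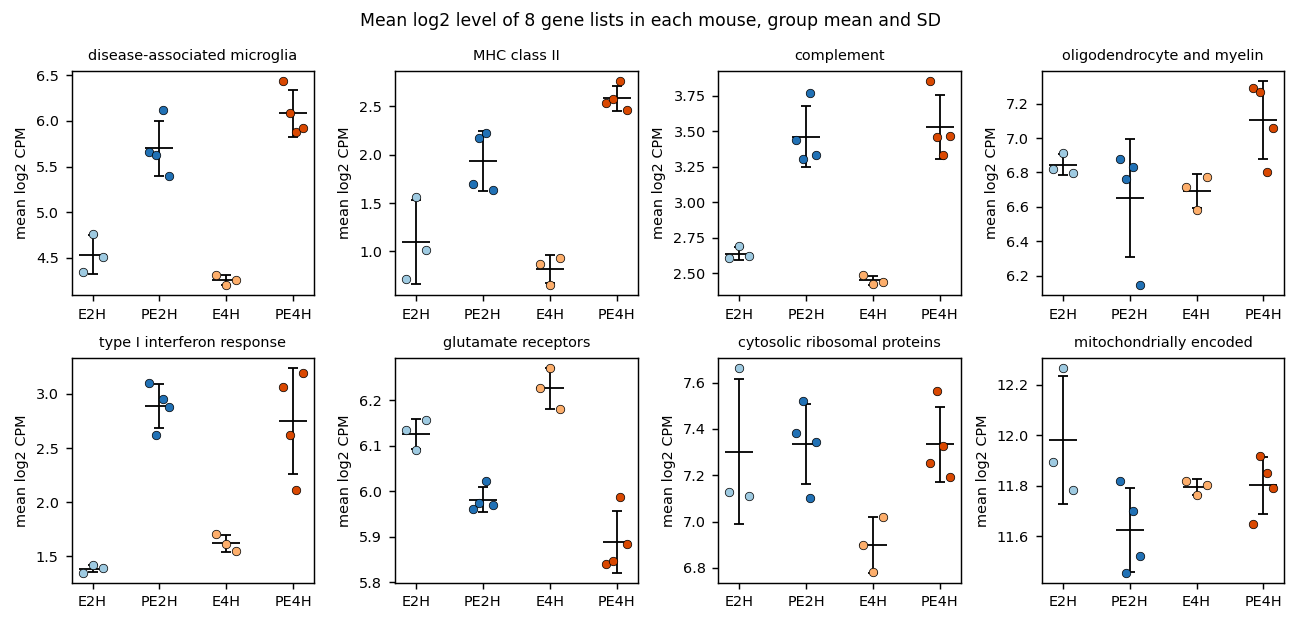
Mean log2 CPM over the tested members of 8 gene lists (y axis) in each mouse of the 4 groups (x axis), with the group mean and SD as lines. For MHC class II, PE4H mice lie at 2.46 to 2.76 and PE2H mice at 1.64 to 2.22, and for the type I interferon list PE4H mice spread from 2.11 to 3.19.

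MHC class II genes, which present antigen to CD4+ T cells, had the largest median interaction among the antigen presentation, complement and microglial lists, 1.10 over 9 genes. All 9 values were positive, against 51.6% of all genes, and 7 had an unadjusted p under 0.05, against 5.34% in the positive direction. The median log2 tau effect was 2.15 on APOE4 and 0.77 on APOE2. On APOE4 7 genes rose and on APOE2 2 genes, against 2.17% and 0.817% of all genes. DESeq2 called 0 interactions of this list. Cd74, the invariant chain, was at 4.14, 8.81 and 6.22 CPM in E2H, 18.0, 31.1, 28.1 and 20.6 in PE2H, 6.92, 6.61 and 5.65 in E4H, and 52.1, 53, 71.7 and 33.1 in PE4H mice. Parental groups overlapped and every PE4H mouse lay above every PE2H mouse. Cd74 rose 8.20-fold on APOE4 and 3.84-fold on APOE2, with an interaction of 1.10 (SE 0.37, unadjusted p = 0.00975, edgeR adjusted p = 0.374). H2-Aa, the alpha chain of I-A, was at 5.73, 9.98, 12.3 and 6.57 CPM in PE2H and 17.0, 16.3, 21.9 and 11.8 in PE4H mice, which overlapped by 1 mouse of each group, and had an interaction of 1.11 (SE 0.41). H2-Eb1 and H2-Ab1, beta chains of the same class, had interactions of 1.38 (SE 0.45) and 1.35 (SE 0.46), with edgeR adjusted p of 0.37 and 0.376.

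2 members differed from the rest. H2-DMa, a chain of the peptide exchanger H2-DM, passed no test in either arm (log2 0.38 and -0.17), with an interaction of 0.55 (SE 0.22). Ciita, the coactivator that switches the class II genes on, had group means between 0.569 and 0.610 CPM in all 4 groups, with an interaction of 0.03 (SE 0.62). Left out in turn, each mouse kept the list's median between 0.80 (without E2H replicate 2) and 1.25. It was 1.40 in the 10 mice with Xist above 100 CPM and 0.79 without the second replicates of E2H and E4H together, 2 settings chosen after the data were seen, and 0.44 in limma on log2(FPKM + 1), a scale that understates changes of low genes.

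Class II genes are also expressed by blood leukocytes, so the blood list is given beside them. The summed level of 16 blood cell genes was 227 to 808 CPM in E2H, 42.7 to 282 in PE2H, 212 to 250 in E4H and 72.8 to 343 in PE4H mice, with no marker at 0 in every mouse of a group. The median interaction of the blood list was 1.73 (0.94 without E2H replicate 1), all 16 values were positive and 6 had an unadjusted p under 0.05, and its part in the class II result was not tested. The most abundant members were hemoglobin genes, of which Hbb-bs was at 282, 132 and 75.1 CPM in E2H, 98.5, 88.5, 16.3 and 12.4 in PE2H, 71.4, 70.4 and 85.9 in E4H, and 90.8, 48.1, 22.3 and 96.0 in PE4H mice, with an interaction of 1.36 (SE 0.92). Igkc, the immunoglobulin kappa constant region of B lineage cells, was at 0.474, 2.34 and 0.887 CPM in E2H, 0.328, 0.708, 2.29 and 0.485 in PE2H, 0.193, 0.278 and 0.254 in E4H, and 18.6, 11.3, 0.63 and 2.77 in PE4H mice. PE4H replicates 1 and 2 carried the high values, and the interaction was 5.45 (SE 1.33, edgeR adjusted p = 0.293, DESeq2 adjusted p = 0.0273). The neutrophil gene S100a8 was at 4.39 CPM in PE4H replicate 1 and at 2.53 CPM in E2H replicate 1, and every other mouse was at 1.72 CPM or below. Ighg2c, an immunoglobulin heavy chain gene, was at 3.33, 6.60 and 3.70 CPM in E2H, 3.35, 3.79, 1.65 and 1.25 in PE2H, 0 in all 3 E4H and 0.45, 0.723, 0.145 and 2.61 in PE4H mice, and DESeq2 called its interaction (adjusted p = 7.58e-05).

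T and NK cell genes summed to 32.6 to 37.9 CPM in E2H, 42.6 to 68.0 in PE2H, 29.9 to 31.4 in E4H and 40.5 to 70.7 in PE4H mice. The summed level of every tau mouse lay above that of the parental mice, but Lag3 carried this: the mean log2 CPM over the list was -1.10 in E2H, -1.24 in PE2H, -1.46 in E4H and -1.31 in PE4H mice, and 1 of 17 genes rose in each arm. Of the 17 tested genes 2 had an unadjusted interaction p under 0.05, near the 10.1% of all genes. The median was 0.45 (0.18 without PE4H replicate 1), and Cd3d, Cd8b1, Gzmb and Prf1 were too low to be tested. Lag3, a checkpoint receptor that also made up 18.9 to 45.0 CPM of the PE4H sums, rose in both arms (log2 2.59 and 2.01) with an interaction of 0.59 (SE 0.37, edgeR adjusted p = 0.625).

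Type I interferon response genes lay on the other side. Of 31 genes 17 rose on APOE4 and 16 on APOE2 with nearly equal medians, 1.38 and 1.43, but 7 interactions were positive, against 51.6% of all genes, and the median was -0.19. No member had a positive interaction at an unadjusted p under 0.05 in edgeR, and 3 had a negative one, against 5.34% and 4.75% of all genes. Isg15, a ubiquitin-like protein conjugated to targets during the antiviral response, was at 1.67, 1.75 and 1.49 CPM in E2H, 7.84, 7.91, 5.75 and 6.90 in PE2H, 2.40, 2.55 and 2.61 in E4H, and 4.82, 3.93, 3.20 and 6.76 in PE4H mice. All E4H mice lay above all E2H mice, and PE4H and PE2H overlapped. Isg15 rose 4.34-fold on APOE2 (log2 2.12, SE 0.23, edgeR adjusted p = 0.000215) and did not pass the fold limit on APOE4 (log2 0.89, SE 0.22, edgeR adjusted p = 0.0175), with an interaction of -1.23 (SE 0.31, edgeR adjusted p = 0.293, DESeq2 adjusted p = 0.0417).

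Oasl1, an oligoadenylate synthetase-like gene that interferon induces, is not on the list. It was at 0.461, 0.366 and 0.532 CPM in E2H, 1.71, 1.16, 1.63 and 1.67 in PE2H, 0.919, 1.2 and 0.71 in E4H, and 0.691, 0.838, 0.598 and 1 in PE4H mice. E4H lay above E2H and PE4H below PE2H. Oasl1 rose 3.39-fold on APOE2 (edgeR adjusted p = 0.00685) and had a log2 tau effect of -0.27 (SE 0.28) on APOE4, which gave an interaction of -2.03 (SE 0.41, edgeR adjusted p = 0.199, DESeq2 adjusted p = 0.00724). Ifi44 rose on both backgrounds (log2 1.68 and 2.76) with an interaction of -1.08 (SE 0.50, unadjusted p = 0.0492), and Stat2, part of the ISGF3 transcription factor, had one of -0.42 (SE 0.17). The abundant members Lgals3bp and Ifi27 had interactions of -0.06 (SE 0.26) and 0.02 (SE 0.21). The list median depended on single mice, from -0.40 without PE4H replicate 4 to -0.03 without PE4H replicate 3, the mouse with the lowest Isg15 among PE4H, and was -0.71 in the 10 mice with Xist above 100 CPM.

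Neither the class I genes nor the interferon gamma inducible GTPases stood with either pattern. MHC class I and peptide loading genes, which display cytosolic peptides on all cells, had a median log2 tau effect of 0.86 on APOE4 and 0.84 on APOE2 over 20 genes, and 8 rose on APOE4 and 4 on APOE2. Their median interaction was 0.14, and B2m, the class I light chain, had one of 0.37 (SE 0.19, edgeR adjusted p = 0.539). The immunoproteasome subunit Psmb8 had an interaction of 0.76 (SE 0.28). Over 14 GTPases the median interaction was -0.03 with 6 positive values and 0 at an unadjusted p under 0.05 in edgeR or called by DESeq2.

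Among immune receptors, Fcer1g, the gamma chain shared by activating Fc receptors, was at 7.38, 10.6 and 6.97 CPM in E2H, 14.1, 13, 19.6 and 14.4 in PE2H, 6.43, 5.05 and 5.16 in E4H, and 26.3, 21, 19.6 and 19.8 in PE4H mice. E4H lay below E2H and, by a small margin over PE2H replicate 3, PE4H lay above PE2H. Fcer1g rose on APOE4 (log2 1.97, SE 0.19, edgeR adjusted p = 1.96e-05) and did not pass the fold limit on APOE2 (log2 0.88, SE 0.18, edgeR adjusted p = 0.0198), with an interaction of 1.09 (SE 0.25, edgeR adjusted p = 0.273, DESeq2 adjusted p = 0.0144). The high-affinity IgG receptor Fcgr1 had an interaction of 0.89 (SE 0.26, edgeR adjusted p = 0.335), with separate PE4H and PE2H groups. Lrp1, a large endocytic receptor that also binds APOE, had a negative one of -0.52 (SE 0.18). Over 15 Fc and phagocytic receptors the median was 0.25, and 8 rose on APOE4 and 5 on APOE2.

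Toll-like receptor genes were less uniform. Tlr4, the sensor of lipopolysaccharide, was at 1.26, 1.68 and 1.39 CPM in E2H, 1.60, 1.18, 1.97 and 1.25 in PE2H, 0.979, 1.19 and 0.991 in E4H, and 2.57, 2.50, 1.97 and 2.54 in PE4H mice. It rose on APOE4 (log2 1.18, SE 0.23, edgeR adjusted p = 0.00425), had a log2 tau effect of 0.06 (SE 0.22) on APOE2, and had an interaction of 1.12 (SE 0.32, edgeR adjusted p = 0.331). Tlr2, which senses bacterial lipopeptides, rose in both arms with an interaction of 1.11 (SE 0.39). The median over 20 genes of this pathway was 0.20 (0.07 without PE2H replicate 4 and 0.35 without PE2H replicate 3), and 2 had an unadjusted p under 0.05, near the 10.1% of all genes. In the inflammasome and cytokine list the adaptor Pycard was at 4.66, 3.15, 3.20 and 1.65 CPM in PE2H and 6.33, 5.21, 5.27 and 6.80 in PE4H mice, and had an interaction of 1.30 (SE 0.39, edgeR adjusted p = 0.352). Tgfb1 had an interaction of 0.94 (SE 0.26, edgeR adjusted p = 0.319). Over 18 tested genes of that list the median was 0.56, with 5 genes that rose on APOE4 and 0 on APOE2. Among 29 chemokines and receptors the median was 0.43, and 12 rose on APOE4 and 5 on APOE2. At an unadjusted p under 0.05 there were 2 positive interactions and 1 negative, near the 5.34% and 4.75% of all genes. The negative one was that of the neuronal chemokine Cx3cl1, -0.34 (edgeR unadjusted p = 0.0322). Ccl3, a macrophage chemokine, rose in both arms with an interaction of 0.01 (SE 0.67).

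Several low-expressed myeloid genes were among those with the smallest p. Fgr, a Src family kinase of myeloid cells, was at 0.54, 0.628 and 0.368 CPM in E2H, 1.48, 0.944, 1.78 and 0.886 in PE2H, 0.163, 0.251 and 0.134 in E4H, and 3.54, 3.04, 1.89 and 2.32 in PE4H mice. The groups did not overlap on either side. Fgr rose on APOE4 (log2 3.87, SE 0.38, edgeR adjusted p = 2.7e-05) and did not pass on APOE2 (log2 1.32, SE 0.34, edgeR adjusted p = 0.0613), with an interaction of 2.55 (SE 0.49, edgeR adjusted p = 0.182, DESeq2 adjusted p = 0.0042). Ms4a4a, a tetraspan protein of microglia and macrophages, was at 0.184, 0.192 and 0.246 CPM in E2H, 0.413, 0.202, 1.02 and 0.735 in PE2H, 0 in all 3 E4H mice and 0.804, 0.575, 0.679 and 0.603 in PE4H mice, so that PE4H and PE2H overlapped and the parental groups did not. Tnfsf8, the ligand of CD30, was at 0.553, 0.576 and 0.368 CPM in E2H, 0.356, 0.337, 0.323 and 0.435 in PE2H, 0, 0.106 and 0 in E4H, and 1.16, 0.46, 0.824 and 1.33 in PE4H mice. DESeq2 called both, with adjusted p of 0.00476 and 7.58e-05. Tifa, an adaptor that activates NF-kB, rose on APOE4 (log2 1.29, SE 0.13) and had an interaction of 0.86 (SE 0.18, edgeR adjusted p = 0.238, DESeq2 adjusted p = 0.0062), with 16.3 to 19.0 CPM in PE4H and 9.43 to 12.1 CPM in PE2H mice.

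Astrocyte genes were divided. Gfap, the intermediate filament of reactive astrocytes, was at 195, 332 and 279 CPM in E2H, 1170, 1220, 1650 and 1270 in PE2H, 233, 233 and 232 in E4H, and 2470, 1880, 1800 and 1740 in PE4H mice. Every PE4H mouse lay above every PE2H mouse and the parental groups overlapped. Gfap rose 8.47-fold on APOE4 and 4.94-fold on APOE2, with an interaction of 0.78 (SE 0.23, edgeR adjusted p = 0.349). Serpina3n, a secreted protease inhibitor, was at 32.6, 32.1 and 27.9 CPM in E2H, 117, 104, 189 and 184 in PE2H, 158, 138 and 168 in E4H, and 551, 416, 424 and 261 in PE4H mice. It was higher on APOE4 without tau (log2 2.33, edgeR adjusted p = 0.000169) and with tau (log2 1.48, edgeR adjusted p = 0.00409), so its smaller tau fold on APOE4 (2.67 against 4.81, interaction -0.85, SE 0.32, edgeR adjusted p = 0.403) started from a higher level. Of 13 pan-reactive genes 12 rose on APOE4 and 6 on APOE2, and the median interaction of 0.41 was 0.05 without PE4H replicate 1 and -0.18 in the 10 mice with high Xist.

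Resting astrocyte genes had smaller differences. The tight junction gene Cldn10 was at 40.4, 47.4 and 33.9 CPM in E2H, 36.7, 33.7, 32.5 and 30.5 in PE2H, 27.5, 27.5 and 29.6 in E4H, and 34.4, 38.1, 43.1 and 39.8 in PE4H mice, with an interaction of 0.74 (SE 0.15, edgeR adjusted p = 0.203, DESeq2 adjusted p = 0.00615). In S100b, a calcium-binding protein of astrocytes, the interaction was 0.64 (SE 0.13, DESeq2 adjusted p = 0.00655), with E4H at 108 to 128 CPM below E2H at 151 to 176. Slc15a2, a peptide transporter, was at 23.7, 28.4 and 26.6 CPM in E2H, 29.0, 26, 28.1 and 28.4 in PE2H, 24.6, 21 and 22.1 in E4H, and 44.2, 33.1, 43.4 and 37.9 in PE4H mice, and its interaction was 0.73 (SE 0.15, DESeq2 adjusted p = 0.00615). The glutamate transporter Slc1a2 and glutamine synthetase Glul, the most abundant members, had interactions of 0.00 (SE 0.12) and 0.05 (SE 0.14). Over 20 homeostatic astrocyte genes 18 values were positive and the median was 0.15.

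Genes of the phagocyte NADPH oxidase and of the antioxidant response had a median interaction of 0.48 over 22 genes, 20 of them positive and 9 with an unadjusted p under 0.05. Prdx6, a peroxiredoxin abundant in astrocytes, was at 213, 266 and 222 CPM in E2H, 318, 355, 350 and 282 in PE2H, 203, 194 and 197 in E4H, and 466, 412, 376 and 419 in PE4H mice. It rose on APOE4 (log2 1.08, SE 0.10, edgeR adjusted p = 1.55e-05) and did not pass the fold limit on APOE2 (log2 0.48, SE 0.10), with non-overlapping groups and an interaction of 0.60 (SE 0.14, edgeR adjusted p = 0.273, DESeq2 adjusted p = 0.0216). Nfe2l2, the transcription factor NRF2, had an interaction of 0.61 (SE 0.15, DESeq2 adjusted p = 0.0317), with 29.8 to 36.9 CPM in PE4H and 21.6 to 27.4 CPM in PE2H mice. The oxidase subunit Cyba rose in both arms, with an interaction of 0.89 (SE 0.26).

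**Figure D4:**
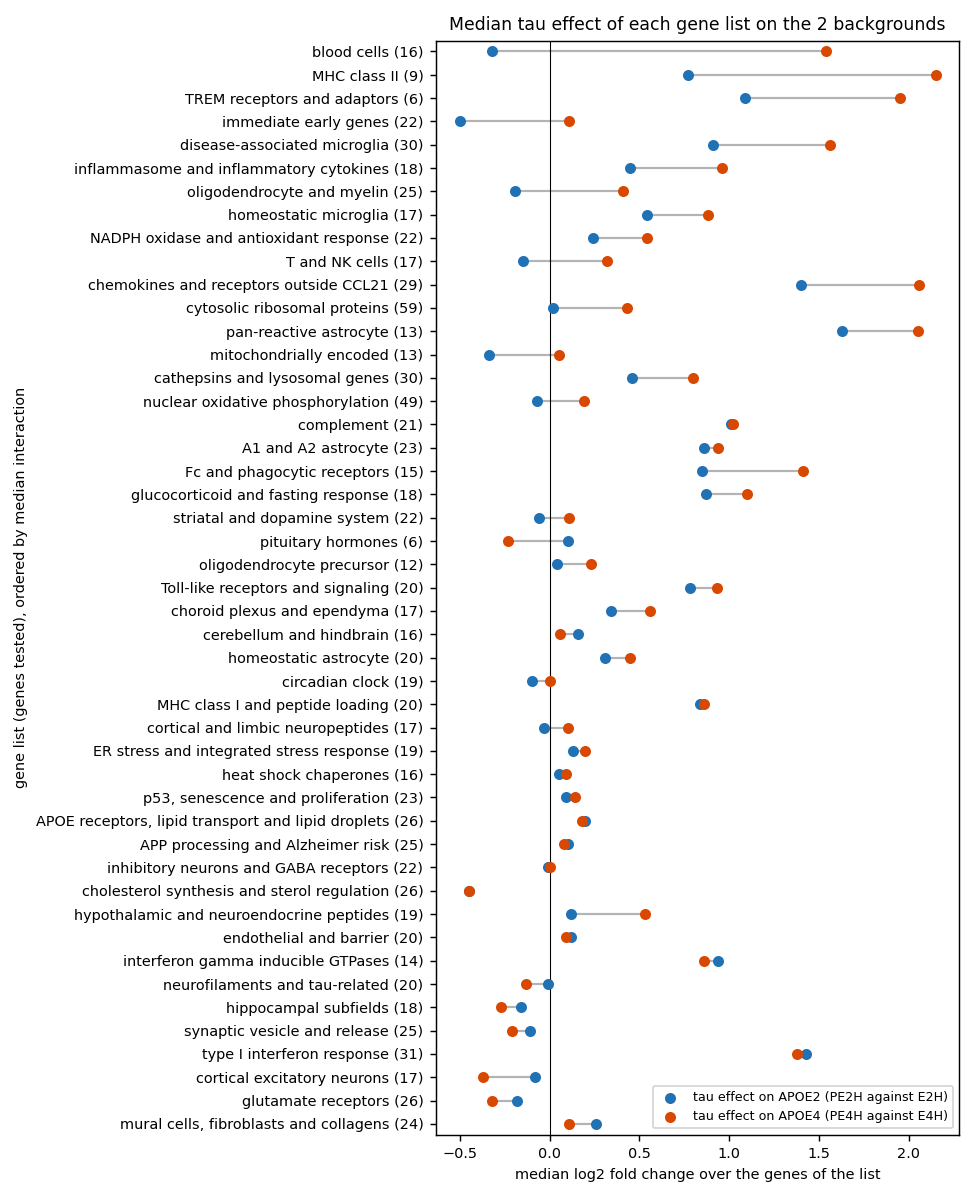
Median log2 tau effect of each gene list on the APOE4 and on the APOE2 background (x axis), with lists in rows. MHC class II lies at 2.15 on APOE4 and 0.77 on APOE2, whereas the type I interferon list lies at 1.38 and 1.43.

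Oligodendrocyte and myelin genes had a positive interaction in all 25 members, with a median of 0.51. Here the arms had opposite medians, 0.41 on APOE4 and -0.19 on APOE2, and 2 genes rose on APOE4 and 0 on APOE2. Cldn11, the tight junction protein of myelin, was at 126, 118 and 107 CPM in E2H, 136, 153, 133 and 119 in PE2H, 105, 92.0 and 105 in E4H, and 215, 184, 156 and 153 in PE4H mice, with an interaction of 0.60 (SE 0.16, edgeR adjusted p = 0.322). PE4H touched PE2H without overlapping it, and E4H lay below E2H. Ermn, a late oligodendrocyte cytoskeletal protein, was at 112, 96.8 and 95.8 CPM in E2H, 92.6, 68.5, 91.0 and 53.9 in PE2H, 94.8 ± 9.63 (SD, n = 3) in E4H, and 127, 144, 109 and 110 in PE4H mice, with an interaction of 0.78 (SE 0.22, edgeR adjusted p = 0.335). Mbp, which encodes a main myelin protein, had an interaction of 0.42 (SE 0.16). PE2H replicate 4 had the lowest list mean of its group, at 6.14 on the log2 CPM scale against 6.76 to 6.88. Without PE2H replicate 4 the list median was 0.43, the lowest value with any mouse left out. Il33, an alarmin that oligodendrocytes and astrocytes store in their nuclei, had an interaction of 1.10 (SE 0.42), again with PE2H replicate 4 lowest at 29.4 CPM. Of the precursor list, Bcas1, which marks newly forming oligodendrocytes, was at 232, 224, 251 and 192 CPM in PE2H and 368, 354, 263 and 280 CPM in PE4H mice, and had an interaction of 0.64 (SE 0.16, edgeR adjusted p = 0.293, DESeq2 adjusted p = 0.0428).

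Some neuronal genes tended the other way. The glutamate receptor, synaptic vesicle and cortical excitatory lists had negative medians. Other neuronal lists did not: 17 of 22 striatal and dopamine genes, 11 of 17 cortical and limbic neuropeptides and 16 of 22 immediate early genes had positive interactions. The 4 genes named next were taken from those of smallest p among negative interactions. Celf5, a neuronal RNA-binding protein and the gene of smallest p among negative interactions, was at 122, 117 and 130 CPM in E2H, 110, 111, 120 and 110 in PE2H, 144, 175 and 150 in E4H, and 94.2, 95.1, 102 and 95.6 in PE4H mice. E4H was the highest group, PE4H the lowest, and no groups overlapped except E2H and PE2H. Its log2 tau effect was -0.69 (SE 0.07, edgeR adjusted p = 4.21e-05) on APOE4, below the fold limit, and -0.13 (SE 0.07) on APOE2, with an interaction of -0.56 (SE 0.10, edgeR adjusted p = 0.182, DESeq2 adjusted p = 0.0011). Chd5, a chromatin remodeler of neurons, was at 160, 151 and 173 CPM in E2H, 164, 190, 180 and 187 in PE2H, 206, 217 and 203 in E4H, and 167, 150, 159 and 137 in PE4H mice, with an interaction of -0.60 (SE 0.11, DESeq2 adjusted p = 0.00106). Sez6l and Ptprn, a complement-like neuronal membrane protein and a dense core vesicle protein, had interactions of -0.63 (SE 0.13) and -0.58 (SE 0.12), with every PE4H mouse below every PE2H mouse for both. For each of these genes the APOE4 mean was above the APOE2 mean without tau and below it with tau. Choice by interaction p favors this order, so it is a description only.

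Glutamate receptor genes had a median interaction of -0.24 over 26 genes, 5 of them positive, and 4 had an unadjusted p under 0.05, all negative. None passed the fold limit in either arm. Grin1, the obligatory NMDA receptor subunit, was at 370, 381 and 372 CPM in E2H, 421, 441, 386 and 446 in PE2H, 411, 428 and 399 in E4H, and 345, 328, 390 and 333 in PE4H mice, with an interaction of -0.42 (SE 0.10, edgeR adjusted p = 0.293, DESeq2 adjusted p = 0.0317). Grin2b had an interaction of -0.77 (SE 0.24) and the abundant AMPA subunit Gria2 one of -0.16 (SE 0.15). In the synaptic vesicle list Unc13a, which primes vesicles for release, was at 149, 180, 181 and 163 CPM in PE2H, 238, 293 and 220 in E4H and 156, 126, 158 and 139 in PE4H mice, and had an interaction of -0.65 (SE 0.16, edgeR adjusted p = 0.293, DESeq2 adjusted p = 0.0413). Snap25 and Syp, more abundant members, had 0.02 (SE 0.11) and -0.16 (SE 0.14). Inhibitory neuron and GABA receptor genes had a median of -0.01, and the mean of the cortical excitatory list was 6.33 to 6.55 in PE4H and 6.48 to 6.68 in PE2H mice on the log2 CPM scale.

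Neuropeptide genes moved singly. Cartpt, which encodes the CART peptides, had the second smallest p of all genes, at 12.5, 12.9 and 15.6 CPM in E2H, 10.4, 10.3, 10.5 and 7.59 in PE2H, 6.81, 6.20 and 8.30 in E4H, and 13.2, 15.3, 11 and 11.3 in PE4H mice. The order of E2H and E4H was the reverse of that of PE2H and PE4H, without overlap in either pair. The interaction was 1.33 (SE 0.22, unadjusted p = 2.57e-05, edgeR adjusted p = 0.182, DESeq2 adjusted p = 5.3e-05), and neither arm passed the fold limit. Cort, the inhibitory neuron peptide cortistatin, fell on APOE4 (log2 -1.13, SE 0.27, edgeR adjusted p = 0.0166), from 3.17, 3.58 and 2.91 CPM in E4H to 1.59, 1.15, 1.29 and 1.86 in PE4H mice. In E2H it was at 0.803, 1.85 and 1.73 and in PE2H at 1.91, 2.56, 1.99 and 1.52, and the interaction was -1.58 (SE 0.39, DESeq2 adjusted p = 0.0417). Over 19 hypothalamic and neuroendocrine peptides the median interaction was -0.02.

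Immediate early genes, which neurons transcribe within minutes of activity, had a median interaction of 0.66 over 22 genes, with 16 positive and 9 at an unadjusted p under 0.05. The median log2 tau effect was 0.11 on APOE4 and -0.50 on APOE2. Fos was at 23.1, 42.9 and 32.8 CPM in E2H, 11.1, 20.8, 14.2 and 20 in PE2H, 21.7, 18.2 and 8.97 in E4H, and 29.7, 34.7, 11 and 39.5 in PE4H mice. All PE2H mice lay below all E2H mice, whereas on APOE4 the groups overlapped, and the interaction was 1.81 (SE 0.53, edgeR adjusted p = 0.339). Nr4a3, a nuclear receptor of the same program, fell on APOE2 from 30.1, 32.6 and 37.1 to 14.8, 15.8, 14.2 and 18.2 CPM (log2 -1.08, SE 0.14, edgeR adjusted p = 0.000897) and had a log2 tau effect of -0.42 (SE 0.14) on APOE4, with an interaction of 0.66 (SE 0.20). Egr1 and Homer1 had interactions of 0.69 (SE 0.32) and -0.15 (SE 0.24).

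Ribosomal protein and oxidative phosphorylation genes gave small values in 1 direction. All 59 cytosolic ribosomal protein genes had a positive interaction, 26 with an unadjusted p under 0.05, and the median was 0.42. The median log2 tau effect was 0.43 on APOE4 and 0.02 on APOE2, and the list was lower in E4H than in E2H mice without tau, with a median of -0.41, while with tau the median was 0.01. Rps12 was at 88.7, 104 and 75.4 CPM in E2H, 85.4, 94.4, 77.2 and 82.1 in PE2H, 60.4, 55.1 and 65.8 in E4H, and 104, 113, 83.9 and 80.1 in PE4H mice, with an interaction of 0.73 (SE 0.18, edgeR adjusted p = 0.293, DESeq2 adjusted p = 0.0347). Of 49 nuclear oxidative phosphorylation genes 48 were positive, with a median of 0.30, and all 13 mitochondrially encoded genes were positive, with a median of 0.35. The most abundant nuclear members, Atp5b and Atp5a1, had interactions of 0.06 (SE 0.13) and 0.11 (SE 0.13).

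The library of E2H replicate 2 bore on these lists. Without it, the ribosomal median was 0.20, the nuclear oxidative phosphorylation median was 0.13 and the mitochondrial median was 0.22. Transcript length moved with the interaction as well: with the tested protein-coding genes divided into 5 equal classes by longest annotated transcript, the median interaction was 0.17, 0.07, 0.01, -0.02 and -0.09 from the shortest class (up to 1924 bases) to the longest (from 5181 bases). Without E2H replicate 2 the same medians were 0.07, 0.02, 0.01, 0 and -0.01. Between the parental groups, E4H minus E2H, the median was -0.20 in the shortest class and 0.14 in the longest. The part of length and of this library in the single interactions was not tested. C1qa, Ctss and Celf5, which were picked for their small p, kept an interaction of the same sign with every mouse left out. Among single mice left out, E2H replicate 2 gave the lowest interaction for C1qa (0.776), Ctss (0.753), Trem2 (0.55), Cd74 (0.798) and H2-Ab1 (0.863). For Clec7a, Itgax and Lyz2 the lowest value came with another mouse left out.

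**Figure D5:**
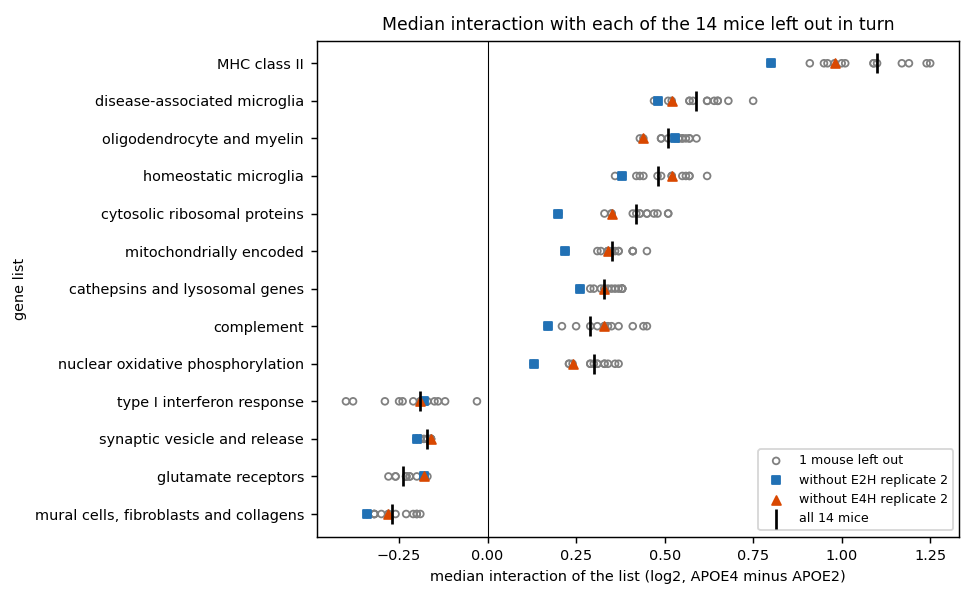
Median interaction of 13 gene lists (x axis, log2) with all 14 mice and after leaving out single mice; each row is a list. The ribosomal list runs from 0.20 to 0.51 and MHC class II from 0.80 to 1.25, while the type I interferon list stays between -0.40 and -0.03.

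Vascular and matrix genes had a negative median. Over 24 mural, fibroblast and collagen genes the median was -0.27, and 5 had an unadjusted p under 0.05, all negative. Pdgfrb, the pericyte growth factor receptor, was at 13.8, 14.6 and 16.4 CPM in E2H, 20.1, 19.8, 22.8 and 17.3 in PE2H, 22.8, 24.6 and 19.6 in E4H, and 22.2, 18.6, 19.0 and 19.9 in PE4H mice, with an interaction of -0.58 (SE 0.16, edgeR adjusted p = 0.331). Col4a2, a basement membrane collagen, was at 30.8, 26.7, 33.6 and 45.0 CPM in PE2H and 19.3, 20, 25.4 and 17.7 CPM in PE4H mice, which did not overlap, and had an interaction of -0.86 (SE 0.27, edgeR adjusted p = 0.357). Col6a1 fell on APOE4 (log2 -1.05, edgeR adjusted p = 0.00351) and had an interaction of -0.64 (SE 0.28). Endothelial and barrier genes had a median of -0.02.

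Lipid and Alzheimer risk genes centred on 0. Cholesterol synthesis genes had the same median log2 tau effect, -0.45, in both arms and a median interaction of -0.02 over 26 genes. Among 26 genes of APOE receptors and lipid transport the median was 0.03, with 3 positive and 2 negative values at an unadjusted p under 0.05. Abca7, a lipid transporter and risk gene, was at 16.8, 15.1 and 16.8 CPM in E2H, 21, 18.5, 16.7 and 18.9 in PE2H, 17.3, 18.3 and 18.4 in E4H, and 12.9, 12.8, 13.1 and 11.2 in PE4H mice. All PE4H mice lay below the other 10 mice. Its interaction was -0.74 (SE 0.14, edgeR adjusted p = 0.182, DESeq2 adjusted p = 0.000774). Clu, the lipoprotein clusterin, had an interaction of 0.41 (SE 0.12, edgeR adjusted p = 0.35), with PE4H at 1620 to 1720 CPM above PE2H at 1430 to 1510. App, the amyloid precursor, had an interaction of -0.16 (SE 0.09). Mapt had one of -0.20 (SE 0.09, unadjusted p = 0.0541), with PE4H at 419 to 471 and PE2H at 432 to 497 CPM. Counts of Prnp, whose promoter drives the tau transgene, were higher in the tau mice on APOE4 (log2 1.03, SE 0.09). The log2 difference was nearly the same on APOE2 (0.92, SE 0.09), with an interaction of 0.11 (SE 0.13). Whether reads of the transgene were counted under Prnp or Mapt was not tested, so a change of the mouse genes themselves cannot be read from these values.

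Of the remaining genes of smallest p, Gyg, which primes glycogen synthesis, and Rida, a deaminase, had interactions of 0.56 (SE 0.10, edgeR adjusted p = 0.182, DESeq2 adjusted p = 0.000583) and 0.57 (SE 0.11, edgeR adjusted p = 0.182, DESeq2 adjusted p = 0.00079). Both had 4 groups in which E4H lay below E2H and PE4H above PE2H. Rida was at 36.6, 31.3 and 36.0 CPM in E4H and 61.4, 65.1, 60.8 and 65.5 in PE4H mice, against 44.2, 44.0 and 41.7 in E2H and 51.5, 56.1, 55.8 and 49.4 in PE2H mice. On the negative side stood Adar, the RNA editing enzyme (-0.59, SE 0.12, DESeq2 adjusted p = 0.00366), Plec, a cytoskeletal linker (-0.71, SE 0.14, DESeq2 adjusted p = 0.00428), Rexo1 (-0.60, SE 0.12, DESeq2 adjusted p = 0.00476), Scube1 (-0.81, SE 0.16, DESeq2 adjusted p = 0.00428) and the translation factor Eif4g3 (-0.54, SE 0.11, DESeq2 adjusted p = 0.00615). For each of these 5 genes the E4H mice lay above the E2H mice, and for Plec, Rexo1 and Eif4g3 the PE4H mice also lay below the PE2H mice. These genes, and Gyg and Rida, were named for their small interaction p in the same mice, which favors such separation. The share of all genes separated in this way was not counted, so it is a description only. Adar was higher in E4H than in E2H mice at an edgeR adjusted p of 0.0119, with a log2 difference of 0.53 that is under the fold limit.

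Genes called in 1 arm only numbered 336 higher and 94 lower on APOE4 and 38 higher and 7 lower on APOE2. Of the 94 genes that fell on APOE4 only, 51 had an unadjusted interaction p under 0.05, against 10.1% of all genes. This excess is built in, since passing in 1 arm only uses the same values as the interaction. A negative value on APOE2 as well was found for 77 of the 94. Besides those already named, Tmem176b rose on APOE4 (log2 1.10, SE 0.11) with an interaction of 0.65 (SE 0.15, DESeq2 adjusted p = 0.0206), and Col6a4 and Dcdc2b fell on APOE4 with interactions of -2.26 (SE 0.58) and -1.55 (SE 0.41). Krt6a was at 0.311, 0.251 and 0.362 CPM in E4H and at 0 in all 4 PE4H mice. Gapdh also fell on APOE4 by the test, but at 49.1 to 216 CPM it shares sequence with many pseudogenes, and its counts are uncertain. On APOE2 only, Il3ra, a subunit of the interleukin 3 receptor, rose (log2 1.23, SE 0.27, edgeR adjusted p = 0.0266) with an interaction of -1.37 (SE 0.37). Lrrc8e and the interferon-inducible Ifi206 were at 0 in all 3 E2H mice and at 0.129 to 0.217 and 0.201 to 0.694 CPM in PE2H mice. Klf10 fell on APOE2, with an interaction of 0.34 (SE 0.29).

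APOE4 was also compared with APOE2 directly. Without tau 25 genes were higher (0.113%) and 14 lower (0.0635%) in E4H than in E2H mice, and with tau 23 were higher (0.104%) and 15 lower (0.0681%) in PE4H than in PE2H mice. Some of the genes set apart by APOE line had interactions small beside their SE. Ccl21b, a chemokine gene with near-identical copies, was at 0.0273 to 0.132 CPM in E2H and 0.0646 to 0.152 CPM in PE2H mice, and at 3.90 to 4.98 CPM in E4H and 4.50 to 6.45 CPM in PE4H mice, with an interaction of 0.06 (SE 0.55). Dctd, a deaminase of nucleotide metabolism, was lower on APOE4 in both pairs (log2 -1.2 and -1.09), with an interaction of 0.10 (SE 0.21). Nnt, a mitochondrial transhydrogenase counted under 2 identifiers, was at 30.5 to 38.3 CPM in all APOE2 mice and 5.35 to 21.5 CPM in all APOE4 mice, with an interaction of 0.64 (SE 0.57). Capn11 was at 2.41, 3.91 and 2.89 CPM in E2H mice and at or below 0.536 CPM elsewhere except for PE4H replicate 3, at 2.02 CPM, and its interaction was 4.59 (SE 1.28, edgeR adjusted p = 0.331).

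The APOE3 mice, which are not part of this contrast but share its APOE4 and APOE2 mice, give the tau effect on another background. C1qa rose there by 1.75 on the log2 scale, against 2.37 on APOE4 and 1.44 on APOE2. Cd74 rose by 2.03, against 3.04 and 1.94, and Gfap by 2.67, against 3.08 and 2.31. Isg15 had a log2 tau effect of 0.13 on APOE3, against 0.89 and 2.12, and the interaction of APOE3 with APOE2 for this gene was -1.99 (unadjusted p = 2.27e-05). In edgeR, 0 of 22863 genes were called for APOE4 against APOE3 (smallest adjusted p 0.0561), with 682 at an unadjusted p under 0.05. For APOE3 against APOE2, 0 of 22863 were called (smallest adjusted p 0.518), with 1555 at an unadjusted p under 0.05, so Isg15 did not pass there. The main contrast had 2223 of 22031 genes at that level. DESeq2 was not run on the APOE3 contrasts.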

How the data were processed

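Forebrain RNA of single mice was sequenced as stranded poly(A) libraries. Reads were trimmed with Cutadapt, aligned with HISAT2 to the Ensembl mouse genome (GRCm38.p5 in the submitters' notes) and quantified with StringTie and ballgown, whose versions, and the step that gave whole counts, are not given in the sources used here. The authors deposited 1 table of raw read counts and 1 table of FPKM values, each with a column per mouse, and 0 columns could not be matched to a mouse. DESeq2 and edgeR are also named in the submitters' notes. Gene symbols came from GENCODE M21 on GRCm38.

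The deposited counts of the 14 mice were filtered with filterByExpr (minimum count 10, minimum total 15), scaled by TMM and fitted with 1 mean per group, no covariate and edgeR's quasi-likelihood F test (R 4.3.3, edgeR 4.0.16). P-values were adjusted by Benjamini and Hochberg over all 22031 genes. The interaction was called at an adjusted p under 0.05, and an arm also needed a fold of at least 2. SE is the log2 value divided by the square root of F. The APOE3 values came from the same model over all 21 mice. The deposited FPKM values were used in an alternative, as log2(FPKM + 1) or log2(FPKM + 0.1) with limma 3.58.1, on whose scale changes of low genes are understated. DESeq2 1.42.0 was the other test. Further alternatives were other size factors, other filters, all 21 mice, Xist as a covariate, a replicate block and each mouse left out in turn. The code was tested on simulated counts.

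Genes were named by rule: the 10 of smallest interaction p in each direction, in each list the member of smallest p and the 2 most abundant, genes of the study's own account, and, among genes called in 1 arm only, 5 in each direction. Igkc, Ighg2c, S100a8, Il33 and others beyond these were chosen with their values known, and some genes that the rule names are not reported here. The contrast, the 50 gene lists and the alternatives were chosen with earlier results of these data known, and no list has a test of its own. The labels give no sex, age or batch for single mice. The study's methods give the sexes per group, which Xist and Ddx3y contradict in E2H, E4H and PE2H. Neither the labels nor the methods say whether mice shared a litter. P-values therefore measure the spread between these mice. No 2 libraries of a group were alike, as the lowest chi-square per gene over 18 pairs was 19.8. Promoter windows came from RefSeq on GRCm38.p6.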

Additional observations from a re-analysis of the deposited data

Results flagged for a closer look

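In the groups of 4 mice, single mice stood apart from the other 3 for 21 gene levels and 5 list means, out of 264 gene and 100 list comparisons, by Dixon's ratio at its 95% critical value. Chance alone flags about 1 in 20 groups, and the parental groups of 3 mice were not tested.

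PE4H replicate 1 was apart most often. It was higher than the other PE4H mice for C1qa (227 CPM, others 181 to 183), Itgax (38.8, others 19.5 to 21), Mpeg1, the macrophage perforin (218, others 140 to 153), Grn, the lysosomal progranulin (140, others 96.1 to 102), and Tifa (19.0, others 16.3 to 16.5). It was lower for Nr4a3 (16.7 CPM, others 20.4 to 21), Atp5a1 (956, others 1060 to 1070), mt-Nd4 (6130, others 7330 to 7530) and mt-Co1 (24600, others 28600 to 28900). Its mean log2 CPM was 6.22 for APP processing and Alzheimer risk genes (others 6.10 to 6.11) and 5.25 for ER stress genes (others 5.19 to 5.20).

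PE2H replicate 4 was lower than the other PE2H mice for Nfe2l2 (21.6 CPM, others 26.4 to 27.4), Cartpt (7.59, others 10.3 to 10.5) and Vtn, the pericyte gene of vitronectin (78.3, others 96.8 to 98.7), and its mean over the oligodendrocyte and myelin list was 6.14 (others 6.76 to 6.88, log2 CPM). PE2H replicate 3 was higher for Ctsb (1100 CPM, others 998 to 1010), Lyz2 (124, others 34.6 to 46.2) and Celf5 (120, others 110 to 111). PE2H replicate 2 was lower for Oasl1 (1.16 CPM, others 1.63 to 1.71).

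Of the remaining PE4H mice, replicate 2 was higher for Gapdh (92.2 CPM, others 49.1 to 50.8) and for the pituitary hormone list (mean log2 CPM 1.91, others -0.53 to -0.43). Replicate 3 was lower for Tlr4 (1.97 CPM, others 2.50 to 2.57), and higher for Capn11 (2.02, others 0 to 0.328) and for the neurofilament and tau-related list (mean log2 CPM 8.01, others 7.89 to 7.91). Replicate 4 was lower for Abca7 (11.2 CPM, others 12.8 to 13.1) and higher for Vtn (114, others 97.4 to 98.5).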

How the results depend on the processing

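The interaction count of 0 was also 0 with RLE or upper quartile scaling, without a filter, with at least 1 CPM in 3 mice, with all 21 mice, with Xist as a covariate and with a fold limit of 2. It was 112 in DESeq2, 2 in limma on log2(FPKM + 1) and 1 on log2(FPKM + 0.1). With 1 mouse left out it ranged from 0 to 3, with 3 without PE4H replicate 1, 2 without PE4H replicate 3, and 1 without E2H replicate 2 or E4H replicate 2. After the data were seen, 2 settings were added: leaving out E2H and E4H replicates 2 together gave 2 genes, and the 10 mice with Xist over 100 CPM gave 5. The cause of these differences was not tested.

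The tau effect on APOE4, 573 genes, was 133 in limma on log2(FPKM + 1), 2341 with no fold limit, 353 without both replicates 2, 335 in the 10 mice with high Xist, and 318 to 609 with 1 mouse left out. On APOE2, 188 genes became 310 in DESeq2, 36 in limma, 430 with no fold limit, and 82 to 207 with 1 mouse left out (82 without E2H replicate 3 and 96 without E2H replicate 1). APOE4 against APOE2 without tau gave 39 genes, 79 in DESeq2, 23 in limma and 24 without both replicates 2, and 27 to 44 with 1 mouse left out. With tau it gave 38 genes, 77 in DESeq2, 13 in limma, 24 in the mice with high Xist, and 28 to 70 with 1 mouse left out (70 without PE2H replicate 3).

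Over 132 named genes and 26 settings the interaction kept its sign in all settings for 116. The sign turned mostly for genes near 0, but also for Nnt (0.64 with all 14 mice), Treml2 (0.65) and Treml1 (-0.74). Without both replicates 2 it was -0.051 for Atp5a1, -0.097 for Atp5b, -0.158 for Ccl21b, -0.063 for Csf1r, 0.023 for Gria2, 0.018 for Slc1a2 and -0.212 for Ifi27. In the mice with high Xist it was -0.108 for Ifi27, -0.159 for Nnt, 0.001 for Slc1a2, -0.041 for Snap25, 0.002 for Syp, 4.083 for Treml1 and -0.246 for Treml2. In limma it was -0.012 for Snap25 at both pseudocounts, and -0.042 and -0.041 for Ifi27, and with all 21 mice it was 0.002 for Slc1a2. With 1 mouse left out the range was -0.003 to 0.18 for Atp5a1, -0.057 to 0.118 for Atp5b, -0.327 to 0.509 for Ccl21b, -0.009 to 0.185 for Csf1r, -0.355 to 0.011 for Eps8l1, -0.031 to 0.125 for Glul, -0.161 to 0.11 for Ifi27, -0.451 to 0.06 for Igf2, -0.241 to 0.07 for Lgals3bp, -0.076 to 0.048 for Slc1a2, -0.025 to 0.074 for Snap25 and -5.344 to 4.027 for Treml1. Leaving out 1 mouse moved some list medians over 1.5 times beside those named in the report: 0.43 over chemokines (0.26 without E2H replicate 2, 0.65 without PE2H replicate 3), 0.25 over Fc and phagocytic receptors (0.38 without E4H replicate 1), 0.29 over A1 and A2 astrocyte genes (0.14 without PE4H replicate 1), 0.35 over CCL21 copies (-0.22 without E2H replicate 1, 1.19 without PE2H replicate 2), 0.22 over glucocorticoid response genes (0.09 without E2H replicate 1, 0.46 without PE2H replicate 4), 0.22 over striatal genes (0.09 without PE4H replicate 3, 0.34 without PE4H replicate 1), 0.20 over pituitary genes (-0.33 without PE4H replicate 2, 0.45 without E4H replicate 1) and -0.02 over hypothalamic peptides (0.43 without PE2H replicate 3).

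The replicate numbers of the labels did not pair the mice, since the correlation of deviations was -0.08 to 0.089 over 19 pairs with the same number. With the replicate block the interaction count was 0, the tau counts were 521 on APOE4 and 135 on APOE2, and the APOE4 against APOE2 counts were 42 without and 28 with tau. Under the block Ifi27 was at -0.007 and Treml1 at 0.076. Depth limits the genes that were under 1 CPM in some mice, such as Fgr, Ms4a4a and Oasl1, whose values there rest on few counts.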

Other observations

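Stress response lists had medians near 0, and none of their members passed the interaction test in edgeR or DESeq2. Atf3, a transcription factor induced by injury, had group means of 1.14 CPM in E4H and 5.78 in PE4H, against 1.70 in E2H and 2.97 in PE2H mice. It rose on APOE4 (log2 2.34, edgeR adjusted p = 0.00051) and had a log2 tau effect of 0.81 on APOE2 (edgeR adjusted p = 0.25), with an interaction of 1.53 (SE 0.44, edgeR adjusted p = 0.335). Hspb8, a small heat shock protein that works with BAG3 in autophagy, rose on APOE4 (log2 1.2), with a log2 tau effect of 0.64 on APOE2 and an interaction of 0.56 (SE 0.16). Psat1, an enzyme of serine synthesis, had an interaction of 0.33 (SE 0.09). The list medians were 0.08 over 19 ER and integrated stress genes, 7 of them positive and 2 negative at an unadjusted p under 0.05, 0.06 over 16 heat shock chaperones and 0.05 over 23 genes of p53, senescence and proliferation.

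Genes that respond to glucocorticoids and fasting had a median log2 tau effect of 1.10 on APOE4 and 0.87 on APOE2, 10 of 18 rose on APOE4 and 6 on APOE2, and the median interaction was 0.22. In the circadian list of 19 genes the median was 0.15. Its repressor Bhlhe41 had an interaction of 0.59 (SE 0.15, edgeR adjusted p = 0.293), and the activator Arntl one of -0.56 (SE 0.22, edgeR adjusted p = 0.429). The time of day of dissection is not in the labels.

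Markers of regions that a dissection could include differed less. The median interaction was 0.22 over 22 striatal and dopamine genes, in which Tac1 and Pdyn, peptide precursors of striatal projection neurons, had 0.68 (SE 0.29) and 0.50 (SE 0.18). It was 0.13 over 17 cortical and limbic neuropeptides, -0.09 over 18 hippocampal genes, -0.20 over 17 cortical excitatory genes, 0.18 over 16 cerebellar and hindbrain genes, 0.19 over 17 choroid plexus and ependyma genes (16 positive) and 0.20 over 6 pituitary genes. Of the glial lists, the median was 0.29 over 23 A1 and A2 astrocyte genes, 0.20 over 12 oligodendrocyte precursor genes and 0.73 over 6 TREM receptors and adaptors. It was -0.17 over 25 synaptic vesicle genes, -0.07 over 20 neurofilament and tau-related genes, 0.03 over 25 APP and Alzheimer risk genes, 0.03 over 26 lipid transport genes and 0.35 over 2 CCL21 copies. The 19 tested genes of the 22 that the study's own account names had a median of 0.64 with 15 positive values, and since they were chosen on these mice they are not independent evidence. For 5 sex-linked genes the median was -7.04, and 1.15 without E4H replicate 3.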
